A study of Mus musculus with 9 samples.

Results

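The small RNA libraries of quadriceps muscle from Mbnl1 knockout mice (Mbnl1KO) were compared with those of wild-type mice (WT), 3 libraries against 3, which are 6 of the 9 libraries counted in the deposited table. All mature miRNAs were taken whose normalized counts averaged above 10 in these 6 libraries, 317 of the 1966 in the table, and 270 of these lie outside the Dlk1-Dio3 region of chromosome 12. The WT mice were C57BL/6J with the genotype Mbnl1+/+ Mbnl2+/+. The Mbnl1KO mice were C57BL/6J with the genotype Mbnl1ΔE3/ΔE3 Mbnl2+/+, a deletion of exon 3 present in all tissues, so that muscle fibres and every other cell of the quadriceps carried it. All 6 were labelled as 90 days old, and the labels give no treatment. MBNL1 is an RNA-binding protein that regulates alternative splicing in muscle, and it is sequestered by expanded CUG repeats in myotonic dystrophy type 1. The comparison asks which mature miRNAs change in muscle when MBNL1 is missing.

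A miRNA is cut from a hairpin precursor, which is itself cut from a longer primary transcript. Many hairpins lie in introns of protein-coding genes (their hosts) or next to other hairpins in 1 primary transcript (a cluster). Each hairpin can give a mature miRNA from its 5′ arm (5p) and from its 3′ arm (3p), and the mature strand finds its target mRNAs mainly through the seed near its 5′ end. miRNAs with the same seed form a family that shares many targets even when its members come from different chromosomes.

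The sequences of the miRNAs on which the results turn are given 5′ to 3′ from RefSeq (GRCm38.p6), with the seed, bases 2 to 8, in capitals. The first are the muscle miRNA with the largest increase and the leading miRNAs of the miR-23/27 clusters.
miR-206-3p: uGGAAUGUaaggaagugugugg
miR-23a-3p: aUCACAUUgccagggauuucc
miR-27b-3p: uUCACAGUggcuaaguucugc
miR-27a-3p: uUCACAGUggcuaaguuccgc
The next are families in which the ratio of members with 1 seed was called.
miR-103-3p: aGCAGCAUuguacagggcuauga
miR-107-3p: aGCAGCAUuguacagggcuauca
miR-181a-5p: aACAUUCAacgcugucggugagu
miR-181b-5p: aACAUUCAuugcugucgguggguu
miR-181c-5p: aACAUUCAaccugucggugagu
miR-146a-5p: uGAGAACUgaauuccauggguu
miR-146b-5p: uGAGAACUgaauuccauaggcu
miR-99a-5p: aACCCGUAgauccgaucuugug
miR-100-5p: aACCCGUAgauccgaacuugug
miR-92a-3p: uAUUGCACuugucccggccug
miR-25-3p: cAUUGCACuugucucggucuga
miR-16-5p: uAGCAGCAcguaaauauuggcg
miR-322-5p: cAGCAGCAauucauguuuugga
The next are a family in which both tested members rose.
miR-28a-5p: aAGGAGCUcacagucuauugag
miR-708-5p: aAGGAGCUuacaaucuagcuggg
The last are both arms of miR-22, which changed in opposite directions, and 2 miRNAs of immune cells.
miR-22-5p: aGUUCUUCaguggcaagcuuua
miR-22-3p: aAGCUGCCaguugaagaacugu
miR-155-5p: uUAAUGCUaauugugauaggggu
miR-223-3p: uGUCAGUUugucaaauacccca
With positions counted from 1 at the 5′ end, miR-107-3p differs from miR-103-3p by G22C, miR-27a-3p from miR-27b-3p by U19C, and miR-100-5p from miR-99a-5p by U16A. miR-146b-5p differs from miR-146a-5p by G18A and U21C, and miR-181b-5p from miR-181a-5p by A9U, C10U and A21G. Reads that end before a single difference near the 3′ end match both miRNAs, and how such reads were counted is not stated with the table, so the division of counts between miR-103-3p and miR-107-3p and between miR-27a-3p and miR-27b-3p is uncertain.

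Libraries held 4761271 to 6277018 counts, of which miR-1a-3p alone took between 61.4% and 71.3%. Replicate libraries are numbered in the labels, which do not say that each came from a separate mouse, so that p-values measure the spread between these libraries. The messenger RNAs of Mbnl1 and its targets are not measured by small RNA libraries, and the genotype could not be checked in them. Normalized counts are counts divided by the TMM-scaled library size, and a miRNA was called higher or lower when its adjusted p was under 0.05 in the quasi-likelihood test of edgeR (Benjamini-Hochberg). TMM factors were between 0.832 and 0.950 in WT and between 1.01 and 1.27 in Mbnl1KO, so the factors of the groups did not overlap and the scaling bears on every direction given. The median over the 317 tested was −0.01 (log2 fold change) with TMM, and with library totals alone it was 0.30.

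Of the 317 tested miRNAs, 105 (33.1%) were called. Outside the Dlk1-Dio3 region 71 of 270 were called (26.3%), of which 26 were higher in Mbnl1KO (9.63% of those tested) and 45 lower (16.7%). The median log2 fold change of the 270 was −0.08, and for 107 of them (39.6%) the WT and Mbnl1KO libraries did not overlap. The 26 increases had a median log2 fold change of 0.87 and the 45 decreases one of −0.69. Changes above 1 in size on the log2 scale were found for 10 higher and 11 lower miRNAs. Of the 71, 35 were called whichever of the 6 libraries was dropped, 16 higher and 19 lower. The number called was lowest without WT replicate 1, at 46. A miRNA whose mean is under 10 in 1 group passed the filter only through the group where it is high, which held for 22 of the 270 tested and 7 of the 71 called (3 higher, 4 lower).

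**Figure D1:**
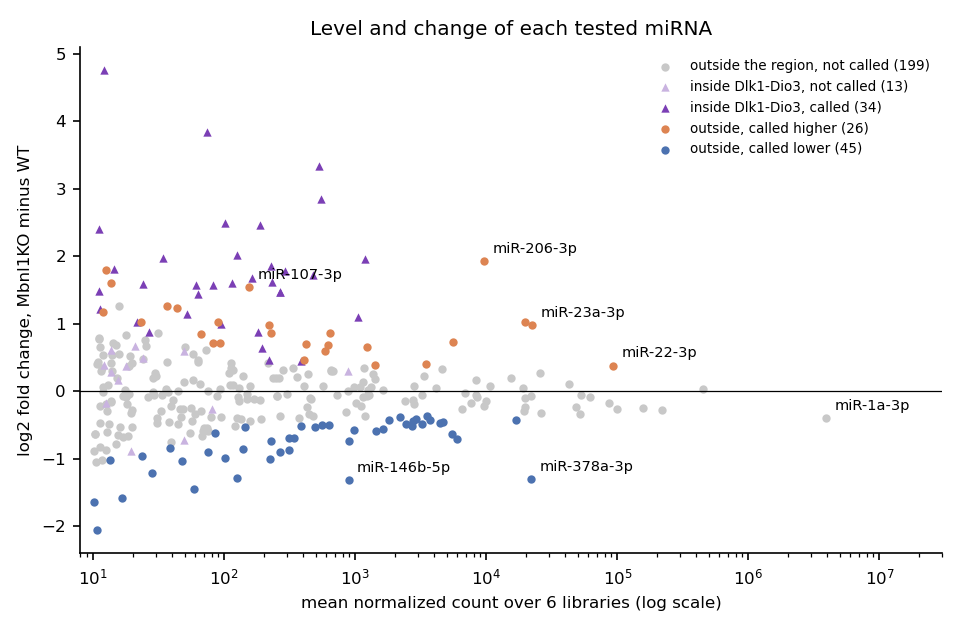
Mean normalized count over 6 libraries (log axis) against the log2 fold change of Mbnl1KO over WT for the 317 tested miRNAs, with circles outside and triangles inside the Dlk1-Dio3 region. Outside the region 26 miRNAs were called higher (orange) and 45 lower (blue). Among miRNAs outside the region with a mean above 100, miR-206-3p had the largest increase.

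The split into higher and lower depended on the scaling. With TMM 36.6% of the calls outside the region were higher, with library totals alone 84.4% (54 higher and 10 lower), and with totals that left out miR-1a-3p 45.8%. All 26 increases were called with library totals too, and 10 of the 45 decreases. Of the 71 miRNAs, 70 were tested with library totals and none of these changed direction, their log2 fold changes being shifted by a median of 0.31. Each decrease given here is therefore one relative to the bulk of the other miRNAs.

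**Figure D2:**
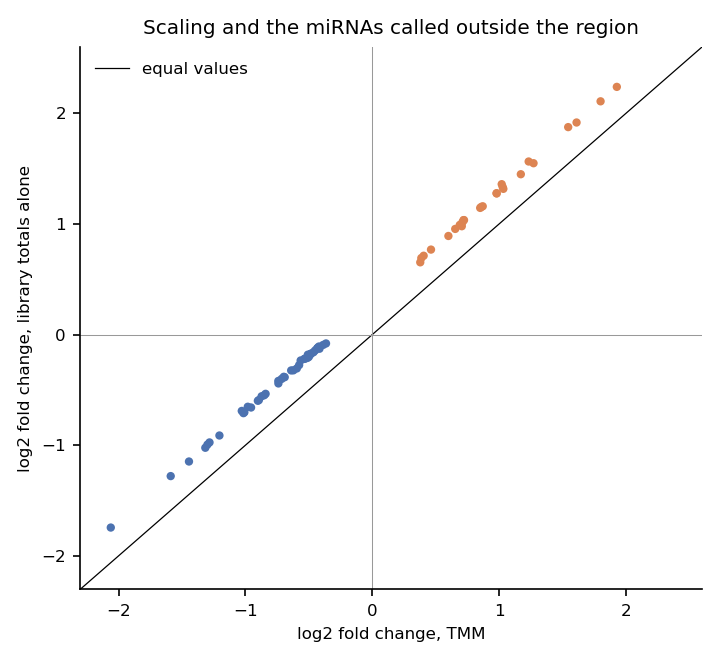
Log2 fold change with TMM (x axis) against log2 fold change with library totals alone (y axis) for 70 miRNAs called outside the region, with the line of equal values. All points lie above the line, by a median of 0.31, and no point crosses 0.

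Muscle-specific miRNAs (myomiRs) moved unequally. miR-206-3p, which is known to promote differentiation and regeneration of muscle fibres, had 4507, 3789 and 3689 normalized counts in WT and 15551, 16773 and 13299 in Mbnl1KO. Every Mbnl1KO library was above every WT library, and the level rose 3.81-fold (log2 fold change 1.93, SE 0.150, adjusted p = 4.37e-21, edgeR). Its hairpin lies at chr1:20749234-20749306, plus strand (GRCm39), within the long non-coding RNA Lincmd1, next to that of miR-133b (chr1:20752993-20753111, plus strand). miR-133b-3p, the neighbour, rose as well but less, with 57.0, 70.3 and 86.0 in WT and 130.2, 119 and 99.4 in Mbnl1KO (log2 fold change 0.71, SE 0.245, adjusted p = 0.0172). Its call was lost without WT replicate 1, WT replicate 2 or Mbnl1KO replicate 1 (log2 fold change 0.57 to 0.69, adjusted p = 0.0711 to 0.123). miR-133b-3p differs from the far more abundant miR-133a-3p only at its 3′ end, so its counts are uncertain in the same way.

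The opposite held for the passenger strand of a miR-1 hairpin. miR-1a-1-5p, from the 5′ arm of the hairpin at chr2:180030841-180030917, plus strand, had 141, 155 and 111 normalized counts in WT and 86.8, 44.9 and 72.6 in Mbnl1KO, without overlap, and fell 1.97-fold (log2 fold change −0.98, SE 0.241, adjusted p = 6.30e-04). It was called whichever library was dropped, but not with library totals alone (−0.65, adjusted p = 0.0516). The guide strand miR-1a-3p, which restrains growth and promotes differentiation of muscle, is made from 2 hairpins. Its log2 fold change of −0.40 (SE 0.165) had an adjusted p of 0.0502 in edgeR and was not called. It was called with DESeq2 size factors (adjusted p = 0.0397), by the DESeq2 Wald test (0.0248), in the fit of all 9 libraries (0.0391) and without Mbnl1KO replicate 2 (log2 fold change −0.48, adjusted p = 0.00748), and not in the other 5 fits with a library dropped, with the replicate block (adjusted p = 0.116) or with library totals alone (log2 fold change −0.11, adjusted p = 0.507). Of the 15 miRNAs listed for skeletal muscle, 6 were tested and 2 were called (33.3%, against 26.3% of all tested outside the region), both higher, with a median log2 fold change of 0.37 against −0.08 over all tested outside the region. DESeq2 called 3, the third being miR-1a-3p as a decrease. The median depends on the choice of members. It counts miR-499-5p, which was high in Mbnl1KO replicate 2 only, and leaves out miR-1a-1-5p, called lower but not listed. miR-133a-3p had a log2 fold change of 0.03 (SE 0.154), miR-133a-5p one of −0.22 (SE 0.143), and neither was called. miR-499-5p, from an intron of the slow myosin gene Myh7b, varied more between libraries than between groups, with 32.4, 22.1 and 8.85 in WT and 10.7, 103 and 9.50 in Mbnl1KO. miR-208b-3p, its counterpart in the slow myosin gene Myh7, was under the filter with a count in 1 library only, that same Mbnl1KO replicate 2. Of the skeletal muscle list, 2 members called with all libraries became 1 without WT replicate 1, WT replicate 2 or Mbnl1KO replicate 1, and 4 without Mbnl1KO replicate 2, when miR-1a-3p and miR-499-5p (log2 fold change −1.04, adjusted p = 0.0344) were added, both lower. Listed at 0 in all 6 libraries were 5 of the 15, among them miR-486a-5p and miR-208a-3p. A listed 0 was not read as absence from the muscle, since entries of miRNAs known to be abundant there, such as miR-486a-5p, are at 0 in this table.

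**Figure D3:**
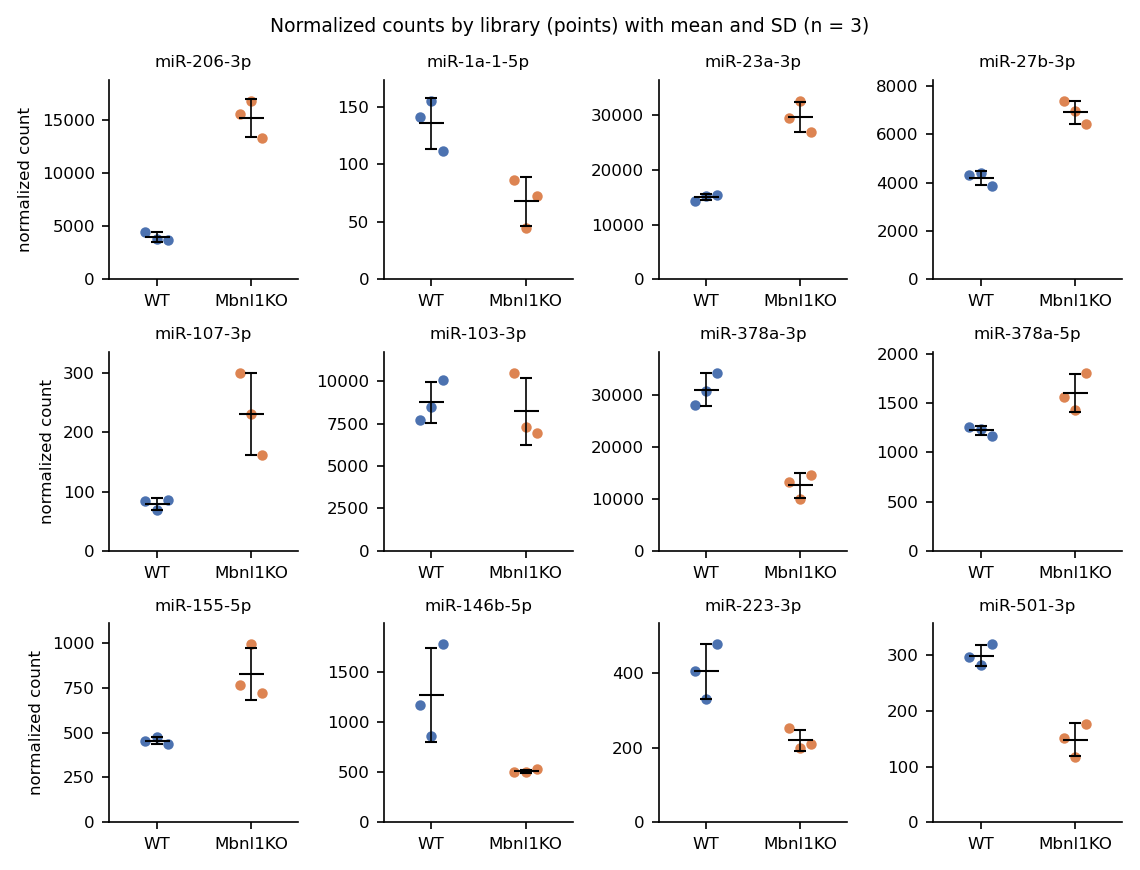
Normalized counts (y axis, from 0) of 12 miRNAs in the 3 WT (blue) and 3 Mbnl1KO (orange) libraries, with the mean and SD in black. Most panels show miRNAs that were named for being called with separate groups, so the lack of overlap in 11 panels follows from that choice. The groups overlap for miR-103-3p. Of all 270 miRNAs tested outside the region, 107 (39.6%) had groups that did not overlap.

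The paired clusters of miR-23 and miR-27, miRNAs known from blood vessels, fat metabolism and muscle atrophy, rose together. Of the 11 listed members of both clusters, which also hold miR-24, 7 were tested and 6 were called, all higher (85.7%, against 9.63% called higher of all tested outside the region), and 1 of the 6, miR-27a-3p, passed the filter only through Mbnl1KO. The 6 include both arms of miR-23a and both of miR-27b. Since the list was chosen with earlier results of these data known, its high share called is no separate support. The list had a median log2 fold change of 0.98. DESeq2 called 5 of the 7. Their summed level was between 31724 and 33490 in WT and between 61077 and 65749 in Mbnl1KO. miR-23a-3p had 14361, 15270.2 and 15507 in WT and 29458, 32557 and 27025 in Mbnl1KO, a 1.97-fold rise (log2 fold change 0.98, SE 0.146, adjusted p = 1.64e-08). miR-23b-3p, which comes from another chromosome, differs from it only near the 3′ end, so the division of counts between them is uncertain too and they may not be separate measurements. It had nearly the same levels, with 13435, 13544 and 12095 in WT and 26748, 25771 and 27182 in Mbnl1KO (log2 fold change 1.03, SE 0.146, adjusted p = 3.53e-09). The hairpin of miR-23a lies at chr8:84935147-84935221, plus strand, outside any annotated host, and that of miR-23b at chr13:63448298-63448371, plus strand, in an intron of Aopep, an aminopeptidase gene.

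The arms of miR-27b followed. miR-27b-3p had 4308, 4389.6 and 3843 in WT and 7355, 6939.8 and 6415 in Mbnl1KO (log2 fold change 0.72, SE 0.143, adjusted p = 1.82e-05), and its passenger strand miR-27b-5p had 132, 158 and 152 in WT and 276, 306 and 291 in Mbnl1KO (log2 fold change 0.98, SE 0.188, adjusted p = 9.77e-06). Both pairs of groups were separate. On the miR-27a side the counts were low. miR-27a-3p, under the filter in WT, went from 6.55 ± 2.39 to 20.7 ± 1.52 (SD, n = 3; log2 fold change 1.61, adjusted p = 0.00167, edgeR), while miR-27a-5p had a log2 fold change of 0.34 (SE 0.225) and was not called. miR-27a-3p stood far below miR-27b-3p, from which it differs by a single base, while the levels of the 5p arms were closer (98.7 for miR-27a-5p and 147 for miR-27b-5p in WT). miR-23a-5p went from 15.3 to 31.3 (log2 fold change 1.02), a call lost without WT replicate 2, WT replicate 3 or Mbnl1KO replicate 1 (log2 fold change 0.73 to 1.15, adjusted p = 0.0512 to 0.175). The 3 entries of miR-24, the third hairpin of each cluster, were listed at 0 in all 6 libraries, which does not show that miR-24 was absent.

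By seed, the tested miRNAs outside the region with a RefSeq sequence held 27 families of at least 2 members. In 13 families at least 1 member was called, and in 6 at least 2 were. Of those 6, 2 families had only increases, 2 only decreases and 2 both, but 1 of those with only decreases is the pair miR-199a-3p and miR-199b-3p, whose sequences are identical. Likewise, 1 of those with only increases is miR-27b-3p with miR-27a-3p. Of these, miR-27a-3p passed the filter only through Mbnl1KO, and the division of counts between them is uncertain. The miR-30 family is among the 13 only through miR-384-5p, which also passed the filter only through Mbnl1KO. To compare members without any library scaling, the log2 ratio of 2 members was taken within each library and tested with limma. Of 101 such pairs, 14 (13.9%) had an adjusted p under 0.05, and these came from 8 families.

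**Figure D4:**
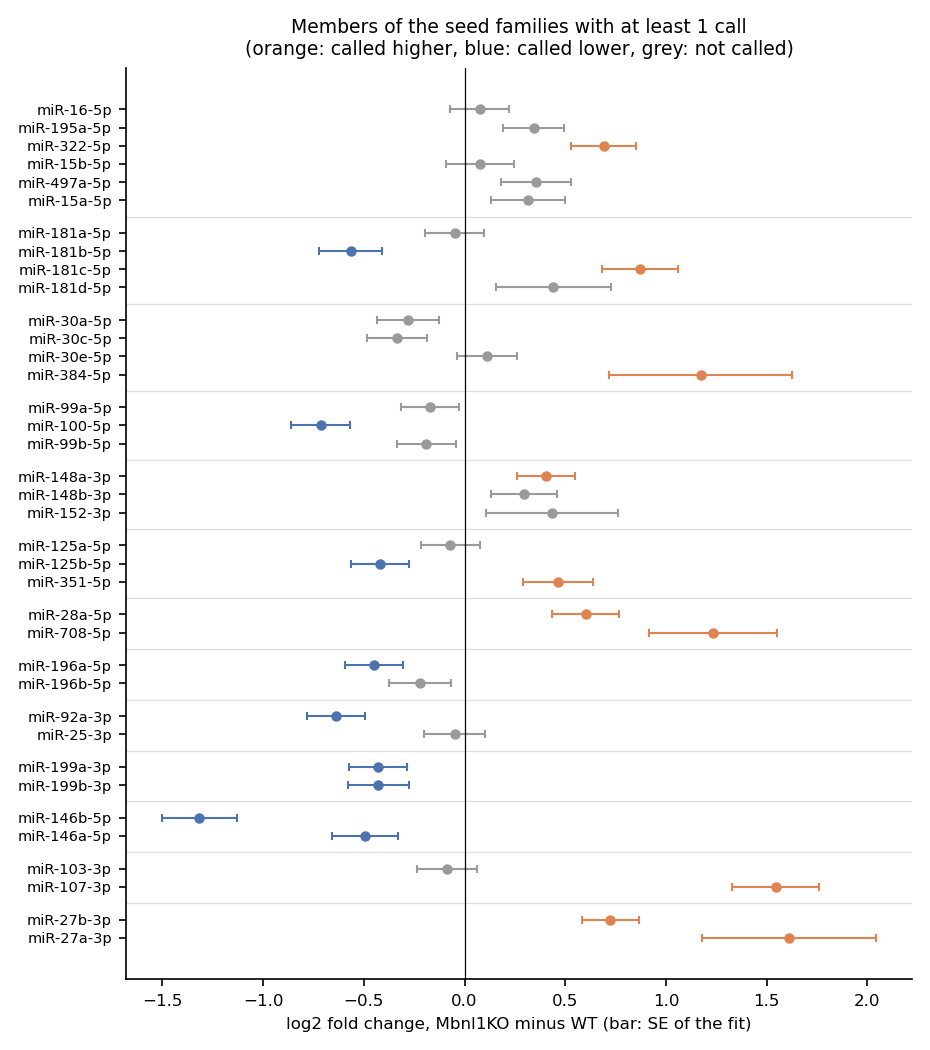
Log2 fold change of Mbnl1KO over WT (x axis) with the SE of the fit for every tested member of the 13 seed families with at least 1 call, families separated by grey lines. miR-107-3p rose while miR-103-3p was not called, and miR-181c-5p and miR-181b-5p lie on opposite sides of 0.

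The largest difference within a family was that between miR-103-3p and miR-107-3p, miRNAs of insulin and lipid metabolism that lie in introns of pantothenate kinase genes. miR-107-3p, in an intron of Pank1 (chr19:34798087-34798173, minus strand), had 83.9, 68.3 and 86.0 in WT and 300.0, 231 and 162 in Mbnl1KO. Every Mbnl1KO library was above the WT range, a 2.92-fold rise (log2 fold change 1.55, SE 0.216, adjusted p = 4.47e-09, edgeR). miR-103-3p, with 8739.5 in WT and 8225 in Mbnl1KO, had a log2 fold change of −0.09 (SE 0.150) and its groups overlapped. miR-107-3p made up 1.08%, 0.798% and 0.849% of the family in the WT libraries and 2.78%, 3.08% and 2.28% in the Mbnl1KO libraries, and the ratio of miR-103-3p to miR-107-3p changed by −1.60 on the log2 scale (SE 0.264, adjusted p = 1.11e-06, limma). The summed level of the family was 8819 ± 1203 in WT and 8456 ± 2027 in Mbnl1KO (SD, n = 3).

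The miR-181 family, known from lymphocyte development and also expressed in muscle, had 1 member called higher and 1 called lower. miR-181a and miR-181b are made together from clusters on chromosomes 1 and 2, and miR-181c and miR-181d from a cluster on chromosome 8 (miR-181c at chr8:84905502-84905590, minus strand, in an intron of Nanos3). miR-181c-5p had 163, 151 and 171 in WT and 244, 298 and 344 in Mbnl1KO and rose 1.83-fold (log2 fold change 0.87, SE 0.187, adjusted p = 8.62e-05). miR-181b-5p had 1970.1, 1926 and 1885 in WT and 1614, 957 and 1336 in Mbnl1KO and fell (log2 fold change −0.56, SE 0.156, adjusted p = 0.00246), a call lost without Mbnl1KO replicate 2 (log2 fold change −0.36, adjusted p = 0.0573). The main member miR-181a-5p, at 8462 and 8180.3, had a log2 fold change of −0.05 (SE 0.147) and miR-181d-5p one of 0.44 (SE 0.285), neither called. The ratios of miR-181d-5p to the other members were not called (adjusted p = 0.0692 to 0.532, limma).

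Within a library, the ratio of miR-181b-5p to miR-181c-5p was 3.59, 3.67 and 3.46 on the log2 scale in WT and 2.72, 1.68 and 1.96 in Mbnl1KO, a difference of −1.45 (SE 0.231, adjusted p = 8.03e-07, limma). miR-181a-5p also lost ground to miR-181c-5p (−0.93, adjusted p = 0.00127, limma). It gained on miR-181b-5p, which is made from the same clusters (0.53, adjusted p = 0.00157), a difference not called without Mbnl1KO replicate 3 (0.43, adjusted p = 0.068). Of the passenger strands of miR-181a, miR-181a-2-3p, within Nr6a1os, had 1272, 1189.9 and 884 in WT and 704, 495 and 802 in Mbnl1KO (log2 fold change −0.74, SE 0.165, adjusted p = 1.83e-04) and fell. miR-181a-1-3p, which passed the filter only through WT, went from 17.4 to 4.03 (log2 fold change −2.06, SE 0.474, adjusted p = 2.54e-04). With single libraries dropped, miR-181a-1-3p was called in 4 of 6 fits and under the filter in the other two. The summed level of the family was 10604 ± 518 in WT and 9851 ± 1926 in Mbnl1KO (SD, n = 3).

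Unequal change was also found among miR-99a-5p, miR-99b-5p and miR-100-5p, regulators of mTOR signalling and cell growth. miR-100-5p had 7337, 7730.1 and 7006 in WT and 4813, 3623 and 5018 in Mbnl1KO, and fell 1.64-fold (log2 fold change −0.71, SE 0.145, adjusted p = 3.09e-05). miR-99a-5p (−0.17, SE 0.143) and miR-99b-5p (−0.19, SE 0.145) were not called. The share of miR-100-5p in the family was 40.5%, 39.0% and 40.1% in WT and 32.7%, 28.1% and 32.6% in Mbnl1KO, and its ratios to miR-99a-5p and miR-99b-5p both fell (log2 difference of miR-99a-5p over miR-100-5p 0.56, of miR-100-5p over miR-99b-5p −0.54, adjusted p = 0.00221 for each, limma). miR-125b-1-3p, the passenger strand of another hairpin in the same long non-coding RNA, Mir100hg, fell from 39.3 ± 11.8 to 17.0 ± 2.85 (SD, n = 3; log2 fold change −1.20, adjusted p = 0.0034, edgeR).

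miR-125b-5p, which is made there and from a second hairpin, fell to a log2 fold change of −0.42 (adjusted p = 0.0178), a call lost without WT replicate 1, WT replicate 2 or Mbnl1KO replicate 2 (log2 fold change −0.41 to −0.33, adjusted p = 0.0638 to 0.0763). miR-351-5p, the third member with this seed, rose (log2 fold change 0.46, adjusted p = 0.0292) with overlapping groups. The ratio of miR-125b-5p to miR-351-5p differed by −0.88 (SE 0.170, adjusted p = 3.72e-05, limma) and stayed called without each library in turn. That of miR-125a-5p to miR-351-5p differed by −0.52 (adjusted p = 0.0269), not called without WT replicate 1 (−0.38, adjusted p = 0.297), WT replicate 2 (−0.57, adjusted p = 0.0708), Mbnl1KO replicate 1 (−0.48, adjusted p = 0.122) or Mbnl1KO replicate 3 (−0.43, adjusted p = 0.203). miR-351-5p lies in Mir503hg on chromosome X together with miR-322-5p, a regulator of the cell cycle with the seed of miR-16. miR-322-5p had 446, 455 and 518 in WT and 781, 788 and 721 in Mbnl1KO, and rose 1.61-fold (log2 fold change 0.69, SE 0.163, adjusted p = 3.67e-04). The other 5 tested members of its family, led by miR-16-5p (0.07, SE 0.145), were not called. In the Mir503hg cluster 10 miRNAs were tested, 8 of them with a positive log2 fold change, against 113 of the 270 outside the region, and 2 of the 10 were called (against 26.3% of the 270), miR-322-5p and miR-351-5p. The call of miR-351-5p was lost without WT replicate 1, WT replicate 3, Mbnl1KO replicate 1 or Mbnl1KO replicate 3 (log2 fold change 0.35 to 0.46, adjusted p = 0.0514 to 0.164).

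miR-92a-3p, of the miR-17-92 cluster of cell proliferation and of a second hairpin on chromosome X, had 7287, 6750.2 and 5788 in WT and 4447, 4032 and 4252 in Mbnl1KO, and fell (log2 fold change −0.64, SE 0.143, adjusted p = 1.69e-04). Its counts cannot be assigned to that cluster alone, in which it was the only 1 of 6 tested miRNAs called. miR-25-3p, with the same seed, had a log2 fold change of −0.05 (SE 0.152), and the ratio of both fell by 0.59 (SE 0.135, adjusted p = 6.90e-04, limma). In contrast, both members of the miR-28/708 family rose. miR-28a-5p, in an intron of the adhesion gene Lpp, had 503, 474 and 427 in WT and 583, 752 and 798 in Mbnl1KO (log2 fold change 0.60, adjusted p = 0.00225), and miR-708-5p, in an intron of Tenm4, had 22.4, 35.2 and 20.2 in WT and 83.8, 55.6 and 44.9 in Mbnl1KO (log2 fold change 1.23, adjusted p = 0.00106). Neither overlapped between the groups, and both were called without each library in turn. miR-148a-3p, a miRNA of muscle differentiation, rose by 0.41 on the log2 scale (adjusted p = 0.0222), and lost its call without WT replicate 2 or WT replicate 3 (log2 fold change 0.32 to 0.40, adjusted p = 0.0713 to 0.107). In the miR-30 family the ratio of miR-30a-5p to miR-30e-5p differed by −0.38 (adjusted p = 0.0458, limma) and was not called in any of the 6 fits with a library dropped (adjusted p = 0.0648 to 0.250). That of miR-30c-5p to miR-30e-5p differed by −0.43 (adjusted p = 0.0157) and was not called without WT replicate 2 (−0.33, adjusted p = 0.25) or Mbnl1KO replicate 3 (−0.42, adjusted p = 0.0843). The let-7 family, the most abundant by summed level after miR-1a-3p, miR-133a-3p and the miR-30 family, had 0 of 9 guide strands called in edgeR, against 26.3% of all tested outside the region, with 2 at an unadjusted p under 0.05 and 1 called by DESeq2. Its median log2 fold change was −0.26, and the number called was 3 without WT replicate 2, 2 without Mbnl1KO replicate 1 and 1 without Mbnl1KO replicate 2. The miR-29 family, known for its collagen targets, had 0 of 7 called in edgeR, with 2 at an unadjusted p under 0.05 and 0 called by DESeq2. In this family miR-29b-3p was called higher without WT replicate 3 or Mbnl1KO replicate 1 and with library totals alone (log2 fold change 0.54 to 0.70, adjusted p = 0.0107 to 0.0453), and miR-29b-1-5p lower without Mbnl1KO replicate 2 (−0.72, adjusted p = 0.0482).

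Because many hairpins lie in hosts, calls were also counted by host. Of 43 protein-coding hosts with at least 2 tested miRNAs, 15 had a call and 6 had at least 2. The share of calls was 24.5% for the 147 tested miRNAs in a protein-coding host, 29.2% for the 89 in a long non-coding RNA only and 25.0% for the 32 with no annotated host, which are all near the 26.3% of the whole.

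Clcn5, a chloride transporter gene on chromosome X, held the most. Of its 5 tested miRNAs 4 were called, all lower, against 16.7% called lower of all tested outside the region. miR-501-3p (chrX:7107482-7107590, minus strand) had 297, 282 and 319.9 in WT and 152, 118 and 176 in Mbnl1KO, and fell 2.01-fold (log2 fold change −1.01, SE 0.188, adjusted p = 6.14e-06). The others were miR-532-5p (−0.69), miR-362-3p (−0.90) and miR-362-5p (−0.62), the last of which was not called without WT replicate 1, WT replicate 2, WT replicate 3, Mbnl1KO replicate 1 or Mbnl1KO replicate 3 (log2 fold change −0.71 to −0.50, adjusted p = 0.0648 to 0.176). miR-532-3p had a log2 fold change of 0.01 (SE 0.383) at a mean of 17.5 in WT. With library totals alone only miR-501-3p of the 5 was called (−0.70, adjusted p = 0.0105).

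Both arms of the hairpins in Dcaf5 and in Ptk2 fell. For miR-1843a-3p, in an intron of Dcaf5 on chromosome 12 but far from the Dlk1-Dio3 region (chr12:80438387-80438451, minus strand), the counts were 177, 186 and 173 in WT and 76.9, 68.5 and 74.3 in Mbnl1KO (log2 fold change −1.28, SE 0.219, adjusted p = 7.12e-07). Its 5p arm had a log2 fold change of −0.74 (adjusted p = 7.85e-04). The Ptk2 arms miR-151-5p (−0.48) and miR-151-3p (−0.54) each lost their call when WT replicate 1 was dropped (adjusted p = 0.0597 and 0.137). They were not called with library totals alone either (log2 fold change −0.17 and −0.22, adjusted p = 0.508 and 0.449). Of the hosts with at least 2 tested miRNAs, 5 more had a single decrease. These were miR-1981-5p in Mtarc2 (−0.85), miR-664-3p in Rab3gap2 (−0.70) and miR-361-5p in Chm (−0.58), all called without each library in turn but not with library totals alone (log2 fold change −0.55, −0.38 and −0.28, adjusted p = 0.0842, 0.175 and 0.286), miR-7a-5p in Hnrnpk (−0.50), not called without WT replicate 1, WT replicate 2 or Mbnl1KO replicate 3 (log2 fold change −0.50 to −0.33, adjusted p = 0.0729 to 0.186), and miR-196a-5p in Hoxc5 (−0.45), not called without WT replicate 3 or Mbnl1KO replicate 3 (log2 fold change −0.41 to −0.33, adjusted p = 0.0636 to 0.0919). miR-7a-5p and miR-196a-5p are each made from 2 hairpins on different chromosomes, so their counts cannot be assigned to these hosts alone. Neither was called with library totals alone (log2 fold change −0.20 and −0.14, adjusted p = 0.481 and 0.577). Of the rising miRNAs, miR-5121 overlaps an exon of the ribosomal protein gene Rpl13a and had 1117, 1001 and 747 in WT and 1314, 1665 and 1536 in Mbnl1KO (log2 fold change 0.65, adjusted p = 4.53e-04).

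The arms of 1 hairpin are cut from the same molecule, so their ratio within a library is free of both scaling and the amount of primary transcript. Of 77 hairpins with both arms tested, 6 (7.79%) had an arm ratio that differed in limma, and 3 of these were among the 64 hairpins outside the region. The largest was miR-378a, in an intron of Ppargc1b, the gene of a coactivator of mitochondrial genes. miR-378a-3p had 28141, 30907 and 34353 in WT and 13223, 10004 and 14727 in Mbnl1KO, and fell 2.46-fold (log2 fold change −1.30, SE 0.151, adjusted p = 2.36e-12, edgeR). miR-378a-5p, in turn, had 1257, 1240.1 and 1168 in WT and 1564, 1425 and 1804 in Mbnl1KO, a rise of 1.31-fold (log2 fold change 0.39, adjusted p = 0.0389) that was lost without WT replicate 1, WT replicate 2, WT replicate 3, Mbnl1KO replicate 1 or Mbnl1KO replicate 3 (log2 fold change 0.29 to 0.41, adjusted p = 0.0547 to 0.223). Neither arm overlapped between groups. The log2 ratio of 5p to 3p was −4.48, −4.64 and −4.88 in WT and −3.08, −2.81 and −3.03 in Mbnl1KO, a difference of 1.69 (SE 0.151, adjusted p = 1.12e-16, limma).

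miR-22, a regulator of muscle and cardiac growth in the long non-coding RNA Mir22hg, changed the other way. miR-22-3p, the guide strand, had 83529, 75874 and 81379.7 in WT and 75882, 128940.0 and 108259 in Mbnl1KO (log2 fold change 0.38, adjusted p = 0.0481), with Mbnl1KO replicate 1 at the lower end of the WT range. miR-22-5p fell by 0.39 on the log2 scale (adjusted p = 0.0368). The call of miR-22-3p was lost without WT replicate 1, WT replicate 2, WT replicate 3, Mbnl1KO replicate 2 or Mbnl1KO replicate 3 (log2 fold change 0.22 to 0.40, adjusted p = 0.0942 to 0.24). That of miR-22-5p was lost without WT replicate 1, WT replicate 2, Mbnl1KO replicate 1 or Mbnl1KO replicate 3 (log2 fold change −0.43 to −0.27, adjusted p = 0.0697 to 0.208). The arm ratio was −5.13, −4.71 and −5.21 in WT and −5.43, −5.93 and −5.87 in Mbnl1KO, without overlap (difference −0.73, SE 0.158, adjusted p = 2.68e-04, limma), and was called without each library in turn. The third was miR-140, a miRNA of cartilage in Wwp2. miR-140-5p rose from 317 ± 4.74 to 519 ± 169 (SD, n = 3; log2 fold change 0.71, adjusted p = 9.66e-04, edgeR), and its ratio to miR-140-3p was −1.87, −2.18 and −1.98 in WT and −1.56, −1.28 and −1.35 in Mbnl1KO (difference 0.62, SE 0.147, adjusted p = 0.00105).

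**Figure D5:**
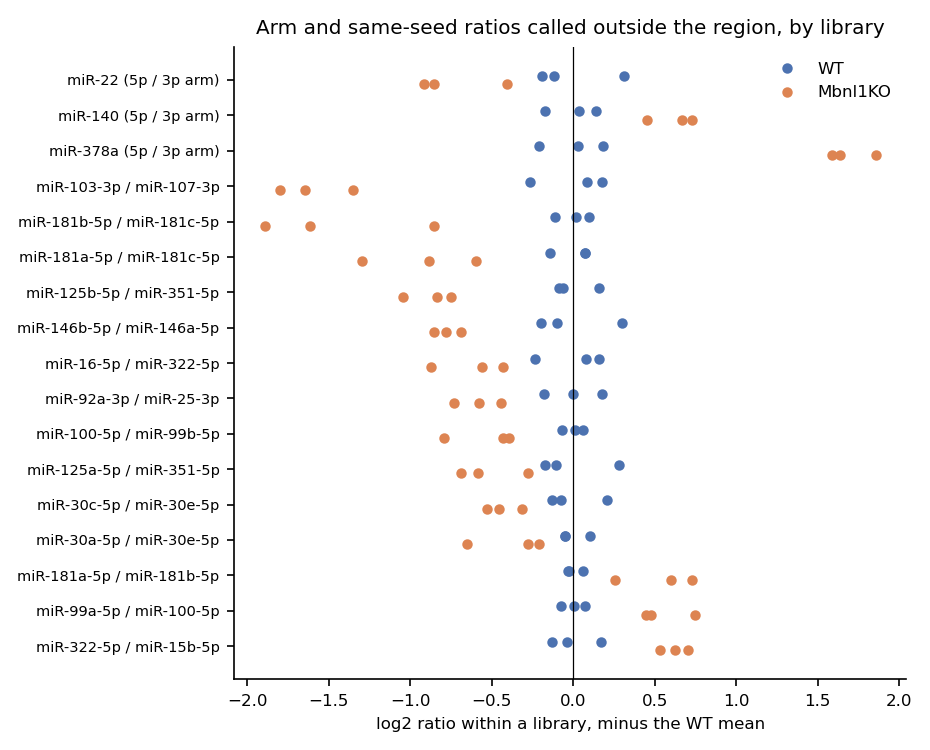
Log2 ratio within each library minus the WT mean (x axis) for the 3 arm ratios and 14 same-seed ratios called outside the region, with WT libraries in blue and Mbnl1KO libraries in orange. The groups do not overlap in any of the 17 rows, which were picked by their adjusted p. Over all ratios tested, the groups were separate for 18 of 77 arm ratios and 29 of 101 same-seed ratios. The arm ratio of miR-378a (1.69) and the ratio of miR-103-3p to miR-107-3p (−1.60) have the largest mean differences.

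miRNAs typical of other cells of the muscle were counted in lists, since in bulk tissue fewer cells of a type and less RNA per cell cannot be told apart. Of 18 miRNAs of immune and blood cells 11 were tested and 5 were called (45.5%, against 26.3% of all tested outside the region), 1 higher and 4 lower, with a median log2 fold change of −0.06. The summed level of the list was between 4281 and 5379 in WT and between 3756 and 4536 in Mbnl1KO. miR-155-5p, induced in activated lymphocytes and macrophages and also known from regenerating muscle, had 453, 476 and 435 in WT and 767, 991 and 721 in Mbnl1KO. All Mbnl1KO libraries were above all WT libraries, a 1.81-fold rise (log2 fold change 0.86, SE 0.165, adjusted p = 1.02e-05, edgeR).

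The other called members fell. miR-223-3p, of neutrophils and other myeloid cells, had 407, 331 and 478 in WT and 253, 199 and 209.9 in Mbnl1KO (log2 fold change −0.87, SE 0.179, adjusted p = 3.74e-05). miR-146b-5p, which dampens innate immune signalling, had 1174, 859 and 1775 in WT and 499, 499 and 530.4 in Mbnl1KO, and fell 2.49-fold (log2 fold change −1.32, SE 0.186, adjusted p = 4.66e-07). The WT libraries ranged widely for it and the Mbnl1KO libraries hardly at all. miR-146a-5p, with the same seed, fell less (log2 fold change −0.49, adjusted p = 0.0136), a call lost without WT replicate 1 or WT replicate 3 (log2 fold change −0.48 to −0.37, adjusted p = 0.0648 to 0.102). The share of miR-146b-5p in the pair was 60.9%, 59.3% and 67.3% in WT and 48.0%, 49.3% and 50.9% in Mbnl1KO (log2 difference −0.77, SE 0.151, adjusted p = 3.72e-05, limma), and this ratio was called without each library in turn. miR-142a-5p, of all blood lineages, fell from 49.7 to 27.9, a call lost without WT replicate 1, WT replicate 2, Mbnl1KO replicate 1 or Mbnl1KO replicate 3 (log2 fold change −0.90 to −0.60, adjusted p = 0.0568 to 0.176).

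Other markers of blood were not called. miR-150-5p, of mature lymphocytes, had means of 877 and 878, and miR-451a, of red cells, had 435, 605 and 619.6 in WT and 459.9, 853 and 451 in Mbnl1KO, with overlapping groups. With library totals alone, and also without WT replicate 1, 3 members of the list were called. The part of immune cell number in the changes of miR-155-5p, miR-223-3p and miR-146b-5p was not tested.

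Of 6 miRNAs of the vessel wall and endothelium 4 were tested and 0 were called by edgeR or DESeq2, with 0 at an unadjusted p under 0.05, against 26.3% of all tested outside the region called. miR-143-3p was called higher without Mbnl1KO replicate 1 (log2 fold change 0.50, adjusted p = 0.00775), and with library totals alone it and miR-145a-5p were called. miR-126a, the defining miRNA of endothelium, was listed at 0 for both arms. All 8 miRNAs of connective tissue were tested and 3 were called, 37.5% against 26.3% of all tested outside the region. miR-199a-3p and miR-199b-3p had a log2 fold change of −0.43 each, but they have 1 identical sequence and stood at a ratio of between 1.98 and 2.1 in every library, so they are 1 measurement. It was not called without WT replicate 1 (adjusted p = 0.0638 for miR-199a-3p) or Mbnl1KO replicate 3 (0.148). The third was miR-140-5p. miR-214-3p (−0.10, SE 0.169) and miR-199a-5p (−0.05, SE 0.145) were not called. Of 12 miRNAs of epithelium, liver and neurons, used as markers of foreign tissue, 0 reached the filter, 5 were listed at 0, which as for miR-24 does not show absence, and the summed level of the list was between 15.1 and 35.4 in WT and between 17.5 and 29.4 in Mbnl1KO. Among the entries at 0 is miR-203-3p, which the paper lists as changed in both knockouts, so this sum is incomplete.

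Of the 16 miRNAs listed for muscle damage and growth 12 were tested and 2 were called (16.7%, against 26.3% of all tested outside the region), both higher and both named above (miR-322-5p and miR-351-5p). miR-21a-5p, which rises with injury and inflammation, had 55966, 68419 and 66669 in WT and 56168, 67469.8 and 56452 in Mbnl1KO and was not called (log2 fold change −0.09, SE 0.147). miR-31-5p (0.68, SE 0.348) and miR-34c-5p (0.76, SE 0.353) were not called. With library totals alone 7 of the 12 were called.

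Of the 16 metabolic miRNAs listed 9 were tested and 7 were called (77.8%, against 26.3% of all tested outside the region), 3 higher and 4 lower, with a median log2 fold change of −0.09. Without any 1 WT replicate, or without Mbnl1KO replicate 3, 4 were called. The 7 called were both strands of miR-378a, both of miR-22, miR-107-3p and both strands of miR-365, a miRNA of brown fat and muscle. Most of the 7 are thus strands of a shared stem and not separate members. The list was also chosen with earlier results of these data known, so its share was not read as a result about metabolic miRNAs. miR-365-2-5p, from the hairpin at chr11:79617226-79617337, plus strand, had 76.0, 57.3 and 126 in WT and 33.5, 35.3 and 25.9 in Mbnl1KO, and fell 2.72-fold (log2 fold change −1.44, SE 0.302, adjusted p = 5.41e-05). miR-365-3p fell by 0.59 on the log2 scale, a call lost without WT replicate 3 (log2 fold change −0.37, adjusted p = 0.0706). miR-193a-5p, whose hairpin lies upstream on the same strand (chr11:79602795-79602860, plus strand), was outside the list and also fell (log2 fold change −0.89, adjusted p = 8.18e-04), from 289.6, 283 and 462 to 200.3, 126 and 226. For all 3 the highest level was that of WT replicate 3. The list's 7 calls were reduced to 4 under the replicate block and with a filter of at least 1 count.

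Other single calls included miR-182-5p, of sensory organs and lymphocytes, with 58.1, 59.3 and 59.4 in WT and 95.9, 168 and 101 in Mbnl1KO (log2 fold change 1.03, SE 0.254, adjusted p = 6.30e-04, edgeR), while miR-183-5p of the same cluster had a log2 fold change of 0.03 (SE 0.316). miR-132-3p, a miRNA of neurons and vessels, rose by 0.72 (adjusted p = 0.0229), and was not called without WT replicate 1, WT replicate 2 or Mbnl1KO replicate 1 (log2 fold change 0.56 to 0.74, adjusted p = 0.0644 to 0.147). miR-384-5p, which has the seed of the miR-30 family and passed the filter only through Mbnl1KO, had a log2 fold change of 1.17 at means of 7.26 in WT and 16.6 in Mbnl1KO, and was not called without WT replicate 1 or WT replicate 2 (log2 fold change 0.83 to 1.15, adjusted p = 0.137 to 0.225). Small decreases were those of let-7d-3p (−0.51), miR-194-5p (−0.51), miR-196a-5p (−0.45), miR-30a-3p (−0.43) and miR-30b-5p (−0.36), and none of these calls held without every library in turn. let-7d-3p and miR-30a-3p were lost without WT replicate 1 (adjusted p = 0.104 and 0.106). miR-194-5p was lost without WT replicate 1, WT replicate 2 or Mbnl1KO replicate 3 (log2 fold change −0.50 to −0.41, adjusted p = 0.0638 to 0.105), miR-196a-5p without WT replicate 3 or Mbnl1KO replicate 3 (log2 fold change −0.41 to −0.33, adjusted p = 0.0636 to 0.0919), and miR-30b-5p without WT replicate 1, WT replicate 2, Mbnl1KO replicate 1 or Mbnl1KO replicate 3 (log2 fold change −0.38 to −0.24, adjusted p = 0.123 to 0.283).

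Inside the Dlk1-Dio3 region 47 miRNAs were tested and 34 were called, all higher (72.3%, against 18.9% called higher of all 317), with a median log2 fold change of 1.44 over the 47. Of the 34, 6 passed the filter only through Mbnl1KO. The region is an imprinted domain whose long miRNA clusters are read from the maternal chromosome. The 3 most abundant called members were miR-541-5p (499, 428 and 519.7 in WT and 1775, 1923 and 1939.5 in Mbnl1KO, log2 fold change 1.96), miR-411-5p (means of 666 and 1426) and miR-487b-3p (132 and 957). Arm ratios differed there for miR-329 (1.40), miR-434 (1.54) and miR-369 (0.72), the last called in only 1 of 6 fits with a library dropped.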

How the data were processed

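Small RNA libraries of mouse quadriceps were analysed from a single table of raw counts that the authors deposited, whole reads per mature miRNA and library, not normalized. According to the methods, the libraries were made with a NEXTflex kit from total RNA, adapters were clipped, identical reads collapsed, and reads matched without mismatch to miRBase precursors before those within a mature miRNA were summed. The table does not state that this counting made it. No molecular identifiers are described, so reads are not independent molecules.

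Groups followed the labels, and no library was left out. Counts of 3 Mbnl1KO and 3 WT libraries were fitted with edgeR 4.0.16 (robust quasi-likelihood test, TMM, Benjamini-Hochberg) in R 4.3.3, with a minimum mean normalized count of 10 and a threshold of 0.05. All miRNAs with 0 in these 6 libraries (1120) were left out. The ratios of both arms of a hairpin, and of 2 miRNAs with 1 seed, were formed within each library as log2 values with a pseudocount of 0.5 and tested with limma 3.58.1 (trend, robust). The scripts were tested on simulated data. Precursors were placed on GRCm39 with GENCODE annotation (1898 of 1966 mature miRNAs, 315 of 317 tested), clusters joined hairpins on 1 strand within 10000 bases, and the Dlk1-Dio3 region ran from Dlk1 to Dio3. RefSeq sequences (GRCm38.p6) were matched by name for 283 of 317, and only these entered seed families. Tables and plots were made with Python 3.11.15, matplotlib 3.10.9, NumPy 2.4.6 and pandas 2.3.3.

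Named outside the region were the 12 rising and 12 falling called miRNAs with the largest change, separate groups and a mean above 100, the called members of the lists, of seed families with at least 3 tested and of hosts or clusters with at least 2 tested, and the 5 most abundant. Inside it, the 3 most abundant called were named. The uncalled partners of a called arm or family member were added beside them. The members and lists were chosen with earlier results of these data known. Alternatives were DESeq2 1.42.0 (size factors or Wald test), library totals with and without miR-1a-3p, filters of at least 1 count or a mean above 100, all 9 libraries in 1 fit, a replicate block, each library left out, a threshold of 0.01, a ratio pseudocount of 5, and edgeR's diffSpliceDGE for arms.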

Additional observations from a re-analysis of the deposited data

How the results depend on the processing

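Against 105 calls in all, the number was 68 with a mean normalized count above 100, where fewer miRNAs are tested, and 75 (without WT replicate 1) to 115 (without Mbnl1KO replicate 2) with 1 library left out. Outside the Dlk1-Dio3 region the 71 calls became 45 at the threshold of 0.01, with 17 higher and 28 lower, and 46 to 78 with 1 library left out, with 18 to 28 higher and 26 to 50 lower. With library totals alone 54 were higher and 10 lower, and with a mean above 100 17 were higher. Inside the region the number was 19 with a mean above 100 and 27 to 37 with 1 library left out, against 34. Arm ratios were called for 5 to 10 hairpins and paralog ratios for 10 to 17 pairs with 1 library left out, against 6 and 14. With a ratio pseudocount of 5, 17 of the called ratios held and 3 were weaker. With diffSpliceDGE, 4 of the called arm ratios held and 2 were weaker. The cause of these shifts was not tested.

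With library totals alone 69 of the 199 miRNAs not called outside the region changed sign, and 0 of the 70 called ones with a value. Among those recomputed under every alternative, 6 uncalled miRNAs changed sign. With library totals alone the log2 fold change was 0.0494 for let-7f-5p, 0.236 for miR-103-3p, 0.265 for miR-181a-5p, 0.0556 for miR-26a-5p and 0.0262 for miR-30a-5p, and with totals without miR-1a-3p it was 0.0165 for miR-181a-5p. With 1 library left out it lay between −0.30 and 0.0231 for miR-103-3p, −0.191 and 0.13 for miR-181a-5p, and −0.0546 and 0.155 for miR-133a-3p.

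The labels number replicates 1 to 3 in each group. Deviations of same-numbered libraries correlated with r between −0.165 and −0.047 over 3 pairs, and 0 of 3 WT libraries correlated best with their own number, so the numbers were not taken to pair the samples. With the replicate block 92 miRNAs were called, 60 of them outside the region (22 higher, 38 lower) and 32 inside, all 60 being among the 71, with 5 arm ratios and 16 paralog ratios. Outside the region 17.1% of the miRNAs with a mean of 10 to 100 were called, 34.7% of those from 100 to 1000 and 33.3% of those above 1000, and the part of counting depth in this was not tested.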
